A study of Mus musculus with 30 samples.

Results

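PDS5A, PDS5B and NIPBL, 3 regulators of the cohesin complex, were removed together from mouse embryonic stem cells for 24 h, and messenger RNA was sequenced. The comparison is held in 6 of the study's 30 libraries, chosen by their titles: 3 treated and 3 untreated libraries of the line PDS5AB-AID_NIPBL-FKBP, called the PDS5AB-NIPBL line here. The line (EN331.2) derives from E14 cells, a male line of 129P2/Ola background, and is named as a single line with no further clone. Its alleles are fusions of both PDS5 proteins to AID (PDS5A-AID and PDS5B-AID), of NIPBL to FKBP (NIPBL-FKBP) and of the cohesin subunit RAD21 to a HaloTag (RAD21-Halo), with Tir1, and both the treated and the untreated cells carry all of these alleles. AID is a degron that the plant protein Tir1 directs to destruction when auxin is present, and FKBP is a degron that the small molecule dTAG-13 directs to destruction. Treated cells received auxin at 500 µM and dTAG-13 at 500 nM for 24 h, and untreated cells received neither. All cells grew in serum with leukemia inhibitory factor (LIF) and 2 inhibitors, PD0325901 against MEK and CHIR-99021 against GSK3.

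Cohesin is a ring-shaped complex that holds sister chromatids together and extrudes chromatin into loops, which bring distant parts of a chromosome, such as enhancers and promoters, near each other. NIPBL stimulates the ATPase of cohesin and is needed for loop extrusion. PDS5A and PDS5B bind the same region of cohesin as NIPBL, help WAPL to release cohesin from chromatin, and act where loops are halted at CTCF sites.

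The comparisons use 3 other lines, each with 3 treated and 3 untreated libraries. The PDS5AB line carries the same AID fusions with Tir1, without the FKBP fusion or the HaloTag, and received auxin for 24 h. The TIR1 line carries no degron fusion and also received auxin for 24 h. The WAPL-NIPBL line carries a WAPL-AID fusion with NIPBL-FKBP, RAD21-Halo and Tir1, and received auxin with dTAG-13 for 24 h. No library holds dTAG-13 alone, both agents without degrons, or loss of NIPBL alone, so the part of each agent and of NIPBL in the effect cannot be told apart. By their library numbers, the PDS5AB-NIPBL and WAPL-NIPBL libraries belong to another set than the PDS5AB libraries, and the untreated and auxin libraries of the TIR1 line lie in different sets from each other. For the TIR1 effect, library set and auxin cannot be told apart. The remaining line of the study, the WAPL line with a WAPL-AID fusion and auxin, was not among the lines tested against and is given only as values.

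The 6 libraries held 19632704 to 31459728 counted fragments, and their log2 levels correlated within a group at Pearson's r of 0.987 to 0.991 across genes. In a principal component analysis of the 6 libraries, component 1 (40.8% of the variance) separated treated from untreated libraries. Component 2 (19.7%) set both libraries numbered 2 (28.3 and 37.4) apart from the other 4, which lay below 0. Those libraries were also high in Lars2, Mir6236 and Gm15564. Lars2, a mitochondrial leucyl-tRNA synthetase, stood at 339 CPM in untreated replicate 2 and 854 CPM in treated replicate 2, and at 104 to 144 CPM in the other 4. CPM is the count of a gene relative to the library total (cpm in edgeR), scaled by TMM, a library-size normalisation. Nothing in the labels says that the replicates were separate cultures, so the p-values measure only the spread between these samples. The cells carried the defining messages of embryonic stem cells: Pou5f1 lay at 752 to 825 CPM in untreated and 552 to 606 CPM in treated cells. The fibroblast feeder markers Dcn and S100a4 were at 0 counts in all 6 libraries, and 6 of the 11 feeder markers were tested, of which 1 rose and 1 fell, or 3 and 2 with replicate number as a block, where 19.5% of all tested genes were called, or 32.1% with the block. The member that fell, Thy1 (log2 fold change -0.63, adjusted p = 0.0486), lost its call without treated replicate 1 (-0.40, 0.298), treated replicate 3 (0.0789), untreated replicate 2 (0.0933) or untreated replicate 3 (0.268), and in the compared groups only (0.112), with alternatives from 0.00131 to 0.298. Summed levels of the feeder markers were 21.2 to 21.8 CPM in untreated and 23.0 to 26.6 CPM in treated libraries.

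A degron acts on the finished protein, so the transcripts of the tagged genes do not check its loss. Pds5a stood at 90.4, 111 and 97.2 CPM in untreated cells and at 81.7, 90.3 and 80.0 CPM in treated cells. The highest treated library lay just under the lowest untreated one, and the log2 fold change was -0.24 ± 0.10 (SE, adjusted p = 0.0925, edgeR). With replicate number as a block in the model the adjusted p was 0.000293, and over all alternatives it ranged up to 0.354. Pds5b (log2 fold change 0.06, adjusted p = 0.659) and Nipbl (-0.01, adjusted p = 0.979) did not pass the threshold. Rad21, the cohesin kleisin, had a log2 fold change of -0.13 (adjusted p = 0.117), which the block took to an adjusted p of 0.00512, and which ranged up to 0.354 over all alternatives.

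Between treated and untreated libraries 3874 of 19868 tested genes (19.5%) differed at an adjusted p under 0.05 in edgeR's quasi-likelihood test. Of these, 2273 rose (11.4%) and 1601 fell (8.06%). The median log2 fold change over all tested genes was 0.003, the median rise 0.64 and the median fall -0.367. A change of at least 2-fold was seen in 831 called genes, 613 higher and 218 lower. The genes that rose held 69259 CPM in untreated and 93420 CPM in treated cells when their mean levels were summed, and those that fell held 190397 and 152222 CPM. The same-numbered libraries deviated together, and with replicate number as a block 6377 genes (32.1%) passed, 3332 higher and 3045 lower. Without both libraries numbered 2, 1598 genes rose and 955 fell. In these bulk samples fewer cells of a type and less RNA per cell cannot be told apart.

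Cyp1a1 had the largest rise among named genes with at least 5 CPM in the higher group. It encodes a cytochrome P450 that is a classic target of the aryl hydrocarbon receptor, a ligand-activated transcription factor. Cyp1a1 (ENSMUSG00000032315.6, chr9:57687928-57703824 on GRCm38) stood at 0.682, 0.566 and 0.491 CPM in untreated cells and at 13.7, 12.5 and 19.6 CPM in treated cells. Every treated library lay far above every untreated one, a 26.3-fold difference (log2 fold change 4.72 ± 0.20, adjusted p = 2.19e-16). Cyp1b1, a related enzyme, had at most 3 counts in each untreated library and was at least 15-fold higher in treated cells, at 1.37, 1.31 and 2.36 CPM. Ahrr, the repressor of the receptor, rose from 0.251, 0.479 and 0.131 CPM to 1.55, 1.16 and 0.716 CPM, without overlap (log2 fold change 2.02, adjusted p = 0.000581). Of the 12 tested genes on the receptor's pathway list, these 3 rose and 2 fell, where 11.4% of all genes rose and 8.06% fell. Tiparp, another target that encodes a poly-ADP-ribose polymerase, fell from 37.3, 49.1 and 33.4 CPM to 22, 24.3 and 18.6 CPM (log2 fold change -0.89, adjusted p = 0.00025). The 3 rising genes also rose in the TIR1 line under auxin alone, where the Cyp1a1 effect was 7.24 on the log2 scale. In that line 9 of the 12 rose and none fell, where 19.9% of all genes were called. Tiparp rose there by 0.68, and its difference between the lines was -1.57 (edgeR adjusted p = 3.6e-05). The difference between the lines for Cyp1a1 was -2.52 (adjusted p = 3.96e-05), a smaller rise in the PDS5AB-NIPBL line.

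The 250 bases before the RefSeq starts of these 3 genes are shown because the receptor is known to bind the core motif GCGTG. Capitals mark each match of GCGTG on either strand (CACGC on the strand shown where the match is on the other). The windows are Cyp1a1 chr9:57697363-57697612 (plus strand), Cyp1b1 chr17:79715062-79715311 (minus strand) and Ahrr chr13:74292332-74292581 (minus strand), from RefSeq on GRCm38.p6, each printed 5′ to 3′ along its gene.
Cyp1a1: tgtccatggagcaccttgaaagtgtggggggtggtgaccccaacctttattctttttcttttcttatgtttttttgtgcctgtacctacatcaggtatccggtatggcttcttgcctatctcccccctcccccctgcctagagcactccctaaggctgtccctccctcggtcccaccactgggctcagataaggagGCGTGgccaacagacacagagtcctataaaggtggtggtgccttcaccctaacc
Cyp1b1: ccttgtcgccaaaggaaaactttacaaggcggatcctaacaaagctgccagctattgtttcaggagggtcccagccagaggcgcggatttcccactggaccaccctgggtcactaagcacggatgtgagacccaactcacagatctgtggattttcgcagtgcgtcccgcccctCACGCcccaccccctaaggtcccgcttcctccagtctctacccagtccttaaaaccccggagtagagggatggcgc
Ahrr: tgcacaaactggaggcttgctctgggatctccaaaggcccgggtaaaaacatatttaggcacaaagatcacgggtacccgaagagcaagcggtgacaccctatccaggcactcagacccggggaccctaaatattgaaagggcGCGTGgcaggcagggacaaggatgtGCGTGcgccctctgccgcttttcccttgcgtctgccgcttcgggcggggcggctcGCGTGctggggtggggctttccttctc
Cyp1a1 had 1 match, 54 bases before the start, Cyp1b1 had 1 at 76 bases, and Ahrr had 3 at 107, 82 and 27 bases. GCGTG occurs in 28.2% of 32851 such promoter windows and in 6 of the 9 pathway genes that have a window, among them Tiparp, which fell. A match is a description of these letters, which come from the reference strain and not from the 129 cells.

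Spry4, an inhibitor of receptor tyrosine kinase signalling that ERK itself induces, had the largest fall under the same rule. It stood at 8.21, 11 and 18.3 CPM in untreated cells and at 0.546, 0.455 and 0.609 CPM in treated cells. The untreated libraries varied among themselves by more than the treated ones, but the groups were far apart, a 22.9-fold fall (log2 fold change -4.52 ± 0.46, adjusted p = 2.22e-08). Dusp6, a phosphatase of ERK, fell from 10.2, 13.2 and 14.1 CPM to 2.19, 3.18 and 3.08 CPM (log2 fold change -2.14, adjusted p = 3.81e-08). Etv4, an ERK-induced transcription factor, fell by 1.50 on the log2 scale (adjusted p = 5.21e-05). Of the 16 genes on the ERK feedback list 5 fell and 2 rose, with a median log2 fold change of -0.05, where 8.06% of all genes fell and 11.4% rose. Fos and Myc, immediate targets of growth signals, rose by 0.77 and 0.76 on the log2 scale. Spry4 fell in the TIR1 line as well (log2 fold change -2.61), and the difference of -1.91 between the lines did not pass the threshold (adjusted p = 0.0509).

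Ceacam1, a cell adhesion molecule of the immunoglobulin family, fell 16.1-fold. It stood at 9.43, 10.1 and 5.90 CPM in untreated cells and at 0.455, 0.859 and 0.322 CPM in treated cells (log2 fold change -4.01 ± 0.25, adjusted p = 1.31e-12). Utf1, a chromatin factor of undifferentiated stem cells, fell from 61.3, 57.6 and 86.4 CPM to 9.93, 12.4 and 14.3 CPM (log2 fold change -2.48). Eras, a Ras-family protein of embryonic stem cells, went from 6.60, 7.01 and 9.53 CPM to 1.00, 1.72 and 1.50 CPM (log2 fold change -2.46). Its exons overlap those of Pcsk1n on the other strand, and the counting ignored strand, so its share of these fragments is uncertain. The further large falls were Enox1 (-2.49), Adamts8 (-2.36), a secreted metalloprotease, and Adam23 (-2.05), a membrane protein of the ADAM family. Groups that do not overlap were a condition for naming these genes, and 33.4% of all tested genes meet it.

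Among the large rises, Epn3, an endocytic adaptor, went from 0.574, 0.348 and 0.524 CPM to 5.56, 3.54 and 5.95 CPM (log2 fold change 3.35 ± 0.38, adjusted p = 1.09e-07). Kctd12, an auxiliary subunit of GABA-B receptors, stood at 3.59, 3.79 and 4.36 CPM in untreated and 20.1, 21 and 21.3 CPM in treated cells (log2 fold change 2.41 ± 0.14, adjusted p = 1.77e-13). Htr5a, a serotonin receptor, rose by 2.79 on the log2 scale, Dkk1, a secreted Wnt inhibitor, by 2.37, Calr4, a calreticulin, by 2.11, and Pdpn, the membrane mucin podoplanin, by 2.03. The treated library numbered 2 was the lowest of its group for Htr5a (18.1 CPM against 31.6 and 37.1), still far above the untreated range of 3.66 to 4.75 CPM. Of the called genes, 82 rose from at most 3 counts in each untreated library and 20 fell to at most 3 counts in each treated library.

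**Figure D1:**
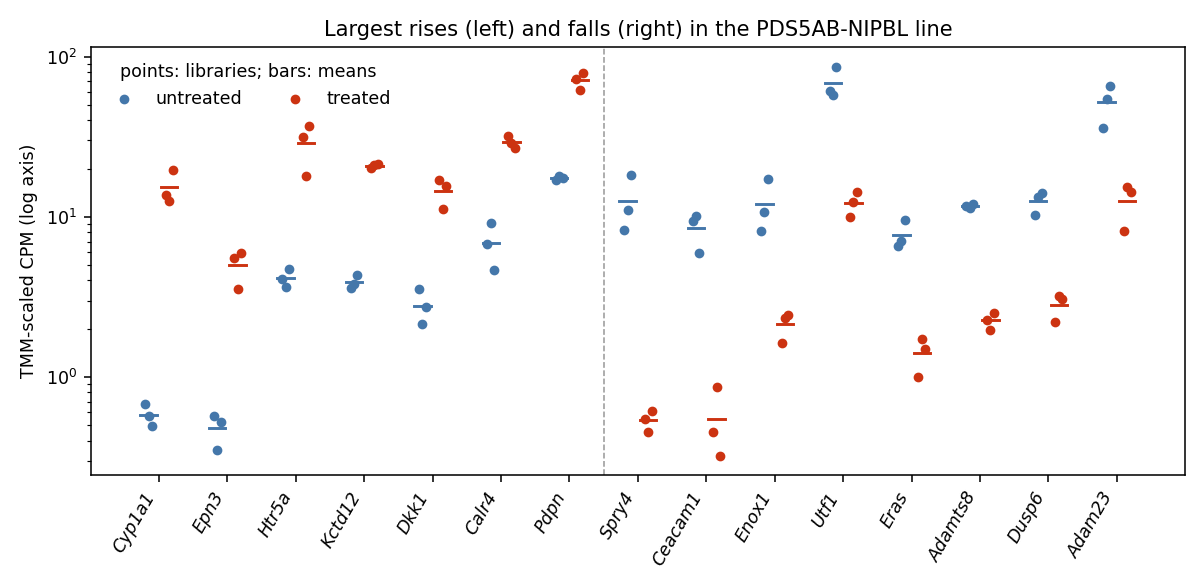
Level of genes with the largest rises (left of the dashed line) and the largest falls (right of it) in the PDS5AB-NIPBL line, in TMM-scaled CPM on a log axis. Points are the 3 libraries of each group and bars are group means. In each of these genes, chosen among those whose groups do not overlap, the treated points lie apart from the untreated points, from Cyp1a1 (log2 fold change 4.72) to Spry4 (-4.52).

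Of 13 general pluripotency genes 10 fell, none rose and 3 were not called (median log2 fold change -0.45, against 0.003 over all tested genes and 8.06% of all genes falling). Pou5f1, which encodes the core factor OCT4, fell from 825, 752 and 817 CPM to 606, 552 and 591 CPM (log2 fold change -0.45 ± 0.07, adjusted p = 4.38e-05). Its partner Sox2 fell from 469, 433 and 412 CPM to 327, 318 and 297 CPM (log2 fold change -0.48, adjusted p = 3.34e-05). The groups were apart in both. L1td1, an RNA-binding protein of stem cells, fell by 0.89 and Lin28a, which blocks maturation of let-7 microRNAs, by 0.85 on the log2 scale. Nanog, the third core factor, fell by 0.25 (adjusted p = 0.0357), a call that was lost without treated replicate 1 (adjusted p = 0.115), treated replicate 2 (0.165), untreated replicate 1 (0.113) or untreated replicate 3 (0.178), and in a fit of the compared groups only (0.0708). Over all of its alternatives the adjusted p of Nanog ranged from 4.16e-06 to 0.178.

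Of 14 naive pluripotency genes, which mark the state of the inner cell mass, 8 fell and 1 rose (median -0.39, where 8.06% of all genes fell and 11.4% rose), or 9 and 4 with the block, where 15.3% fell and 16.8% rose. Zfp42, the marker also called Rex1, fell from 672, 630 and 696 CPM to 366, 390 and 401 CPM (log2 fold change -0.79 ± 0.07, adjusted p = 4.07e-09). Prdm14, a repressor of differentiation and DNA methylation, fell by 1.01, Klf4 by 0.66 and Esrrb, a nuclear receptor that sustains self-renewal, by 0.40 on the log2 scale. Fgfr2, the receptor through which FGF4 promotes primitive endoderm, was the member that rose without the block, from 9.11, 6.31 and 10.4 CPM to 17.4, 14.1 and 16.7 CPM (log2 fold change 0.90, adjusted p = 0.000381). Of 14 markers of the formative stage that follows 5 fell and 1 rose (median -0.38). Zic2, a zinc-finger factor of that stage, fell from 36.8, 26.2 and 36.2 CPM to 14.3, 10.8 and 10.4 CPM (log2 fold change -1.49, adjusted p = 1.5e-07), and its relative Zic5 fell by 1.04.

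Of 14 tested genes of primitive and definitive endoderm 6 rose, none fell and 8 were not called (median 0.60, with 11.4% of all genes rising). Pdgfra, the receptor that marks primitive endoderm, rose from 4.95, 4.40 and 5.18 CPM to 16.6, 16.6 and 18.0 CPM (log2 fold change 1.81 ± 0.15, adjusted p = 5.9e-10). Dab2, an endocytic adaptor of the same cells, rose from 4.41, 3.26 and 4.42 CPM to 10.9, 8.99 and 12.9 CPM (log2 fold change 1.43, adjusted p = 1.77e-06). Col4a2, a basement membrane collagen, rose by 1.04. Among the factors that define this cell type, Gata6 rose from a mean of 0.274 CPM to 0.879 CPM (log2 fold change 1.63, adjusted p = 0.00292). Gata4 (0.64, adjusted p = 0.0606), Sox17 (0.32, adjusted p = 0.696) and Sox7 (-0.60, adjusted p = 0.618) did not pass, and Sox17 and Sox7 stayed below 1 CPM in every library. The part of a change in cell makeup in these rises was not tested.

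Other lineage lists were mixed, and are set against the same 11.4% of all genes rising and 8.06% falling. Of 14 trophoblast and simple keratin genes 4 rose and 4 fell: Krt8, an epithelial keratin, rose from 14.4, 15.3 and 16.4 CPM to 27.3, 27.5 and 32 CPM (log2 fold change 0.91), while Tfap2c, a trophoblast and germ cell factor, fell from 46.0, 44.0 and 49.1 CPM to 17.2, 19.3 and 18.9 CPM (log2 fold change -1.33, adjusted p = 5.25e-13). Without treated replicate 3 the list counted 2 rises and 3 falls. Among 11 neural genes 3 rose and 1 fell: Nes, an intermediate filament of neural progenitors, rose by 0.72 and Sox1, an early neural factor, fell by 1.13 on the log2 scale. Eomes, a streak and trophoblast factor, fell by 0.80. Of the 14 primitive streak and mesoderm genes 3 rose and 2 fell, or 1 and 2 without treated replicate 1. Of 20 collagen and laminin chains 9 rose and 2 fell (median 0.37), and Col11a1, a fibrillar collagen chain, fell by 0.87.

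Genes of the two-cell-like state, a rare state of stem cell cultures in which Zscan4 and companions are on, gave no call. None of 14 tested members passed in edgeR (2 had an unadjusted p under 0.05, and DESeq2 called 2), where 19.5% of all genes were called. Their median was 0.86. Their levels summed to 0.348 to 0.655 CPM in untreated and 1.05 to 1.22 CPM in treated libraries, without overlap, and 33.4% of single tested genes did not overlap. The members are near-identical copies whose ambiguous fragments were dropped, so each single value is uncertain. The replicate block called 2 of them and 32.1% of all genes.

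**Figure D2:**
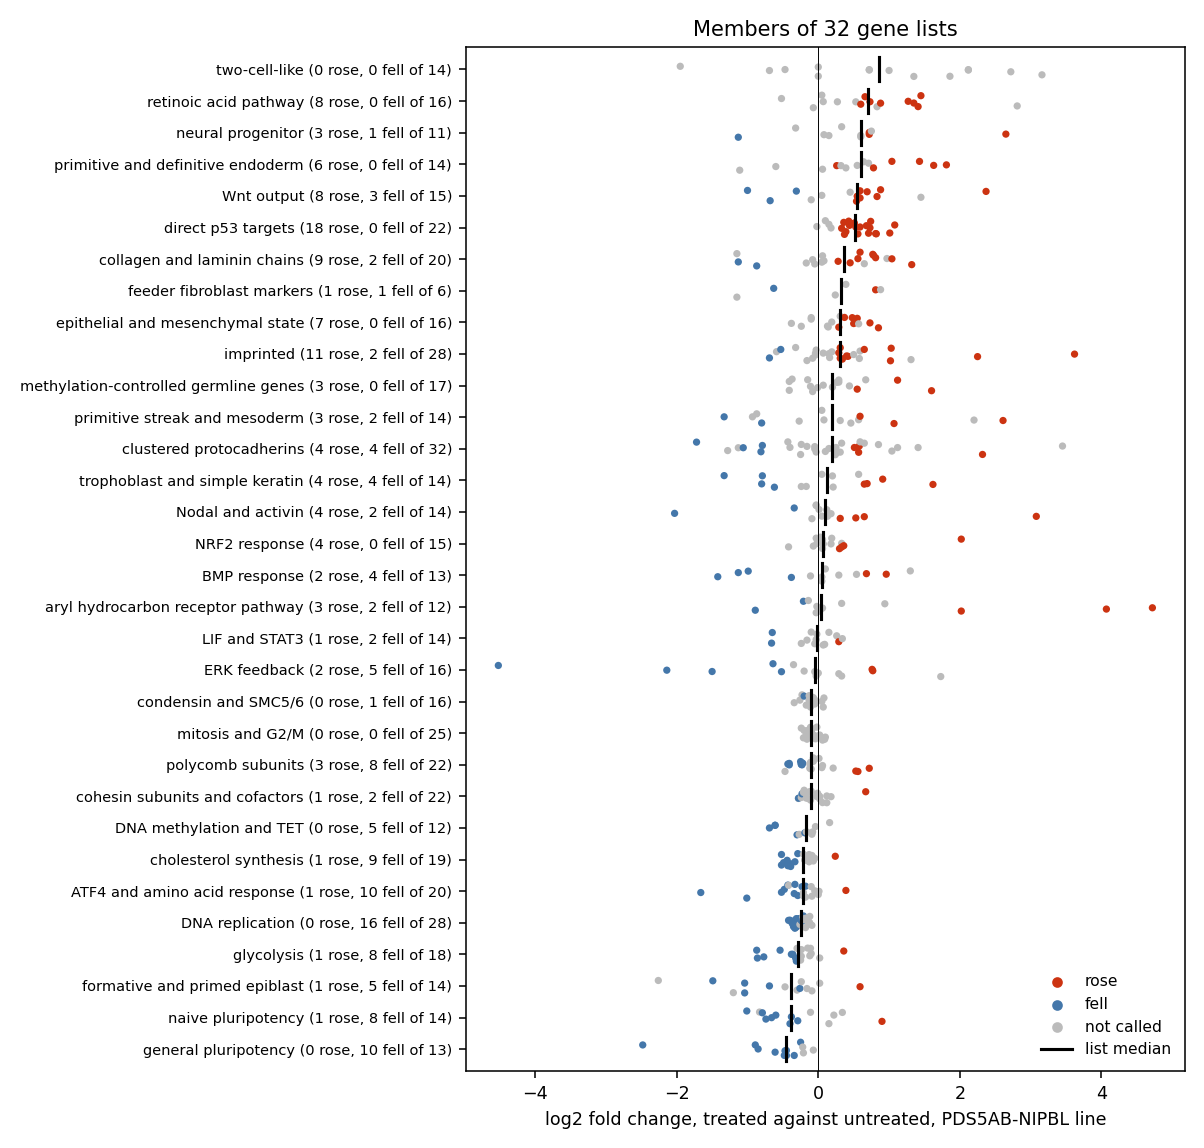
Log2 fold change of each tested member of 32 gene lists in the PDS5AB-NIPBL line, ordered by list median (black bar), with members that rose in red, fell in blue and were not called in grey. General pluripotency (median -0.45) lies at the bottom and retinoic acid pathway genes (0.70) and two-cell-like genes (0.86, none called) at the top, while all tested genes have a median of 0.003.

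Targets of p53, the stress-induced transcription factor that halts the cell cycle, had the largest share of called members of all lists without the block. It was 81.8%, against 19.5% of all tested genes. Of 22 direct targets 18 rose and none fell (median 0.52, with 11.4% of all genes rising), and 17 rose without both libraries numbered 2. The list summed to 2685 to 2911 CPM in untreated and 3742 to 4073 CPM in treated libraries. Mdm2, the ubiquitin ligase that restrains p53, rose from 180, 180 and 183 CPM to 305, 291 and 290 CPM, a 1.63-fold rise (log2 fold change 0.71 ± 0.06, adjusted p = 5.09e-10). Plk2, a kinase of the stress response, rose from 64.4, 51.7 and 64.3 CPM to 135, 118 and 128 CPM (log2 fold change 1.08, adjusted p = 2.85e-10). Perp, a membrane protein of the p53 death pathway, rose by 0.82. Cdkn1a, the cell cycle inhibitor p21, rose from 164, 152 and 128 CPM to 193, 185 and 179 CPM (log2 fold change 0.33, adjusted p = 0.00505). Without untreated replicate 3, the lowest of its group, Cdkn1a had an adjusted p of 0.0711, and its range over all alternatives was 2.33e-05 to 0.0711. Of the 22, 17 rose in the PDS5AB line, 12 in the TIR1 line, 12 in the WAPL line and 2 in the WAPL-NIPBL line. Of all genes 46%, 19.9%, 32.8% and 8.57% were called in these 4 lines in the same order. In the WAPL line 2 of the 22 fell, and 1 fell in the PDS5AB and in the TIR1 line. The effect was larger than in the WAPL-NIPBL line for 4 members by the test of the difference, which was more positive for 0.267% of all genes. Among the 4 was Mdm2 (difference 0.58, adjusted p = 0.000677). The difference was more negative for 2 members against the PDS5AB line (4.48% of all genes) and more positive for 2 against the TIR1 line (5.28%).

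Cdkn1a has 2 RefSeq starts, and a p53 consensus pair, which few promoter windows hold, lies in the 250 bases before the upstream one. The window chr17:29093519-29093768 before the other start has no match. The matching window chr17:29090729-29090978 (plus strand, GRCm38.p6) is shown. Capitals mark the match, which begins 73 bases before the start.
Cdkn1a: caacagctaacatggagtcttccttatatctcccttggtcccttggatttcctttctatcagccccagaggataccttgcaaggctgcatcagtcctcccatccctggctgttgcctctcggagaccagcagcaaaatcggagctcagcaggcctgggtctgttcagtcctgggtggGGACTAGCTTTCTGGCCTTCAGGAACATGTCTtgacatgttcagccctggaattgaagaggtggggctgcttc
Both strands were searched for the p53 consensus pair by its name, with a spacer of up to 13 bases, and it occurs in 21 of 32851 windows (0.0639%). Of the 16 listed targets with a window, 1, Cdkn1a, holds it. No match says only that these letters are not in the window.

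Of 20 amino acid and stress genes under the factor ATF4, 10 fell, 1 rose and 9 were not called (median -0.22, where 8.06% of all genes fell and 11.4% rose). Slc7a3, a transporter of cationic amino acids, fell from 92.6, 103 and 105 CPM to 26.2, 38.1 and 30.5 CPM (log2 fold change -1.66 ± 0.13, adjusted p = 1.12e-10). Psat1, an enzyme of serine synthesis, fell from 253, 236 and 256 CPM to 161, 174 and 186 CPM (log2 fold change -0.52, adjusted p = 0.00036). Chac1, a glutathione-degrading enzyme, fell from 5.27, 5.22 and 3.70 CPM to 1.96, 3.59 and 1.65 CPM (log2 fold change -1.01, adjusted p = 0.00473). That call was lost without treated replicate 3 (adjusted p = 0.059, range over all alternatives 3.16e-06 to 0.059). The same list had 14 falls in the PDS5AB line, 14 in the TIR1 line, 13 in the WAPL line and 6 in the WAPL-NIPBL line. In these lines 46%, 19.9%, 32.8% and 8.57% of all genes were called in either direction. The Chac1 window, chr2:119350992-119351241 (plus strand), is shown because it holds the ATF motif TGATGNAA, in capitals as its reverse complement.
Chac1: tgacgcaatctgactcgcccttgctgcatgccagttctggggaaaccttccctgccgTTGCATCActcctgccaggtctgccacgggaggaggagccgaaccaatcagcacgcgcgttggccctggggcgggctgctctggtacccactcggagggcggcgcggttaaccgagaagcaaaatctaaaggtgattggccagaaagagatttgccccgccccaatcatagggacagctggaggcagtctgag
The match begins 193 bases before the start. The motif, searched on both strands, occurs in 3.45% of all windows and in 5 of the 18 listed genes with a window.

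Among growth and metabolism genes, where 8.06% of all genes fell and 11.4% rose, most calls were falls of small size. Of 28 DNA replication genes 16 fell and none rose (median -0.25), among them E2f1, the S-phase transcription factor, from 63.1, 65.5 and 63.6 CPM to 47.1, 46.3 and 50.5 CPM (log2 fold change -0.42 ± 0.07, adjusted p = 7.38e-05), and Pola1, the catalytic subunit of DNA polymerase alpha, by 0.40. None of 25 genes of mitosis passed in edgeR (6 had an unadjusted p under 0.05 and a lower level, and DESeq2 called 2 lower). With the replicate block, which called 15.3% of all genes lower and 16.8% higher, 12 of them were lower and 1 higher, and without untreated replicate 2, 4 were lower. Of 19 cholesterol synthesis genes 9 fell and 1 rose, with Msmo1, a sterol oxidase, lower by a log2 fold change of -0.52. Without treated replicate 3 the count was 6 falls and no rise. Of 18 glycolytic genes 8 fell and 1 rose, 15 and 1 with the block, and 4 and 1 without treated replicate 3. Slc2a1, the glucose transporter GLUT1, fell from 437, 491 and 343 CPM to 239, 281 and 183 CPM (log2 fold change -0.86, adjusted p = 5.23e-05), with replicate 3 the lowest in both groups.

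Signalling lists beyond ERK are set against 11.4% of all genes rising and 8.06% falling. Of 15 Wnt output genes 8 rose and 3 fell (median 0.55), and 5 rose and 2 fell without treated replicate 3 or without untreated replicate 1. Sp5, a direct Wnt target, rose from 36.2, 35.7 and 31.7 CPM to 67.5, 49.1 and 67.6 CPM (log2 fold change 0.83, adjusted p = 0.00101). Ccnd1, the G1 cyclin, fell from 58.2, 56.2 and 73.9 CPM to 27.2, 29.3 and 37.2 CPM (log2 fold change -1.0, adjusted p = 4.96e-07). In the TIR1 line, where 19.9% of all genes were called, 10 of the 15 rose and none fell, and for 5 the effect in the PDS5AB-NIPBL line was lower by the test of the difference, as for 4.81% of all genes. Of 16 retinoic acid pathway genes 8 rose and none fell (median 0.70), or 5 without untreated replicate 1, without untreated replicate 2, or without both libraries numbered 2. Aldh1a2, which makes retinoic acid, rose from 4.34, 3.66 and 3.37 CPM to 11.7, 8.54 and 10.7 CPM (log2 fold change 1.45, adjusted p = 1.09e-05), and Stra8, a retinoic acid target of germ cells, rose by 1.41. Among 14 Nodal and activin genes 4 rose and 2 fell, or 2 and 1 without both libraries numbered 2. Inhbb, an activin subunit, fell from 5.81, 6.27 and 13.5 CPM to 1.23, 1.77 and 3.15 CPM (log2 fold change -2.03, adjusted p = 4.17e-05).

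Of 13 BMP genes 4 fell and 2 rose, where 8.06% of all genes fell and 11.4% rose. Bmp4, the ligand, fell from 15.9, 20.4 and 17.6 CPM to 9.75, 6.72 and 8.02 CPM (log2 fold change -1.13, adjusted p = 1.97e-05). Id3, a target of the pathway, fell by 1.42, and the ligand Bmp7 rose by 0.96. Of 14 LIF and STAT3 genes 2 fell and 1 rose (21.4% called, near the 19.5% of all genes), or 4 and 3 with the block, which called 32.1% of all genes. Pim3, a STAT3-induced kinase, fell by 0.65 and Stat3 itself rose by 0.29 on the log2 scale. Of 15 NRF2 response genes 4 rose, 7 with the block and 2 without untreated replicate 3. Gclc, the first enzyme of glutathione synthesis, rose from 81.9, 81.6 and 80.2 CPM to 103, 106 and 90.9 CPM (log2 fold change 0.30, adjusted p = 0.00303). Of 16 genes of epithelial and mesenchymal state 7 rose, 2 without treated replicate 1, 4 without treated replicate 3 and 3 without untreated replicate 2. Epcam, an epithelial adhesion molecule, rose by 0.55 (adjusted p = 0.000174).

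Among chromatin genes the share of called members was 13.6% for cohesin and 6.25% for condensin and SMC5/6, against 19.5% of all tested genes, and 50% for polycomb and 41.7% for DNA methylation. Of 22 tested cohesin subunits and cofactors 1 rose and 2 fell, or 2 and 9 with the block, which called 32.1% of all genes. Rec8, the meiotic kleisin, rose from 22.7, 23.2 and 19.6 CPM to 38.1, 37.2 and 29.3 CPM (log2 fold change 0.67, adjusted p = 5.61e-05). Espl1, the protease separase that cuts cohesin, fell by 0.28. Of 16 condensin and SMC5/6 genes 1 fell, or 5 with the block. Of 22 polycomb subunits 8 fell and 3 rose. Bmi1, a subunit of polycomb complex PRC1, rose from 35.8, 32 and 31.6 CPM to 51.6, 47.7 and 44.8 CPM (log2 fold change 0.53, adjusted p = 6.26e-05). Of 12 DNA methylation genes 5 fell, 8 with the block and 3 without treated replicate 1 or without untreated replicate 3. Dnmt3l, a cofactor of the de novo methyltransferases, fell from 189, 164 and 200 CPM to 123, 115 and 104 CPM (log2 fold change -0.69). Its exons overlap those of Aire on the other strand, so the share of each is uncertain. Zfp57, which protects imprints, fell by 0.61 (adjusted p = 5.71e-07).

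Imprinted genes and clustered protocadherins are both known for regulation by CTCF. Of 28 imprinted genes 11 rose and 2 fell (median 0.30), where 11.4% of all genes rose and 8.06% fell. H19, the maternally expressed noncoding RNA, rose from 1.40, 1.13 and 1.67 CPM to 3.05, 3.23 and 2.47 CPM (log2 fold change 1.03, adjusted p = 0.00907), and Cdkn1c, a growth inhibitor, rose by 0.65. Grb10, an adaptor that restrains insulin signalling, fell from 68.5, 62.5 and 73.0 CPM to 42.4, 40.1 and 43.6 CPM (log2 fold change -0.69, adjusted p = 1.12e-07). Of 57 clustered protocadherins, adhesion proteins with shared exons, 32 were tested, 4 rose and 4 fell, or 25.0% called, against 19.5% of all genes. Without treated replicate 1 the count was 1 and 3, without untreated replicate 1 it was 2 and 3, and without both libraries numbered 2 it was 1 and 4. Pcdhga12 fell from 6.60, 4.79 and 5.60 CPM to 3.46, 3.69 and 2.76 CPM (log2 fold change -0.79, adjusted p = 0.00025), and shared exons make such values uncertain. Of 17 tested germline genes held silent by DNA methylation 3 rose, among them Tex101, a testis glycoprotein, by 1.6. These are 17.6% called, not above the 19.5% of all genes, and the block gave 5 rises and 1 fall, where it called 32.1% of all genes.

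The effect was compared with that of auxin in the PDS5AB line by a test of the difference between both treatment effects. The difference passed for 1879 genes (9.46%), 988 more positive (4.97%) and 891 more negative (4.48%) in the PDS5AB-NIPBL line. Among the 418 that differed at least 2-fold, 88 were more positive and 330 more negative. Of all 1879, 677 had opposite fitted signs, and both effects were called for 75 of these. Where both fitted effects had the same sign, the effect was smaller in the PDS5AB-NIPBL line for 1145 genes and larger for 57. The auxin effect in the PDS5AB line called 9134 genes (46%). It shared 3116 genes with the effect in the PDS5AB-NIPBL line. These are 80.4% of the PDS5AB-NIPBL calls and 34.1% of the PDS5AB calls, and 3041 of them had the same sign. Another 758 genes were called in the PDS5AB-NIPBL line and not in the PDS5AB line, and the difference itself was called for 135 of them. With the replicate block the difference passed for 4847 genes, 2576 more positive and 2271 more negative. Without both libraries numbered 2 it passed for 1144.

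Slc7a3 shows the smaller effect: it fell by 1.66 in the PDS5AB-NIPBL line and by 3.11 in the PDS5AB line, with a difference of 1.45 (adjusted p = 6.15e-06). Mobp, a myelin protein, had the most positive difference among genes with a regular symbol and at least 5 CPM in the higher group. It rose from 22.5, 17.5 and 15.7 CPM to 40.7, 34.9 and 28.9 CPM in the PDS5AB-NIPBL line (log2 fold change 0.91, adjusted p = 9.97e-05), and in the PDS5AB line it went from 7.54 ± 1.98 to 1.04 ± 0.30 CPM (SD, n = 3), a difference of 3.74 ± 0.29 (SE, adjusted p = 8.85e-10, edgeR). Gli2, a transcription factor of the Hedgehog pathway, stood at 132, 123 and 128 CPM untreated and 109, 98.4 and 117 CPM treated, and the PDS5AB line fell from 64.6 ± 6.50 to 16.2 ± 0.53 CPM (SD, n = 3). The difference for Gli2 was 1.75 (edgeR adjusted p = 2.03e-12). Krt19, a keratin of simple epithelia, differed by -2.05 (adjusted p = 0.00249): the PDS5AB line rose from 20.6 ± 4.51 to 127 ± 20.9 CPM (SD, n = 3, edgeR on all genes), and the PDS5AB-NIPBL libraries overlapped, at 21.7, 25.3 and 9.56 CPM untreated and 30.7, 38.4 and 15.2 CPM treated. Replicate 3 was the lowest of both groups for Krt19, and each treated library lay above its same-numbered untreated one.

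Against auxin in the TIR1 line the difference passed for 2005 genes (10.1%), 1049 more positive (5.28%) and 956 more negative (4.81%). Of the 653 that differed at least 2-fold, 450 were more positive and 203 more negative. Of all 2005, 1459 had opposite fitted signs, 345 a larger and 201 a smaller effect of the same sign in the PDS5AB-NIPBL line. Both effects were called for 183 of the 1459. The TIR1 effect called 3962 genes (19.9%). It shared 1300 with the effect in the PDS5AB-NIPBL line, 33.6% of the PDS5AB-NIPBL calls and 32.8% of the TIR1 calls. Of these, 1117 had the same sign. For 1034 of the genes called in both with the same sign no difference was called, and a missed threshold does not show that the effects were alike. Epn3 differed by 3.32 on the log2 scale, with a TIR1 effect of 0.04. Cdx2, a factor of trophoblast and posterior mesoderm, differed by -2.09 (adjusted p = 2.79e-05), with a rise of 0.69 in the PDS5AB-NIPBL line and of 2.78 in the TIR1 line. For Tfap2c the TIR1 effect was 0.64 and the difference -1.97 (adjusted p = 2.91e-13). With the replicate block the difference from the TIR1 line passed for 4996 genes, 2391 more positive and 2605 more negative.

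Against the WAPL-NIPBL line, whose libraries received the same agents in the same library set, 72 genes (0.362%) differed, 53 more positive (0.267%) and 19 more negative (0.0956%). Of the 72, 45 had a larger and 4 a smaller effect of the same sign in the PDS5AB-NIPBL line, and 23 had opposite fitted signs. Both effects were called for 3 of the 23. The WAPL-NIPBL effect called 1702 genes (8.57%). It shared 1285, which are 33.2% of the PDS5AB-NIPBL calls and 75.5% of the WAPL-NIPBL calls, and 1282 had the same sign. With the replicate block 807 genes differed, and leaving out 1 library at a time gave 28 to 56. The lowest counts were 28 without untreated replicate 3 of the PDS5AB-NIPBL line and 36 without its treated replicate 1, and 37, 37 and 38 without treated replicate 2, untreated replicate 3 or untreated replicate 2 of the WAPL-NIPBL line. Without untreated replicate 2 of the PDS5AB-NIPBL line 40 differed, and without untreated replicate 1 of the WAPL-NIPBL line 47. Adamts8 was 2.36 lower in treated PDS5AB-NIPBL cells on the log2 scale and 0.73 lower in WAPL-NIPBL cells, a difference of -1.63 (adjusted p = 0.000826).

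**Figure D3:**
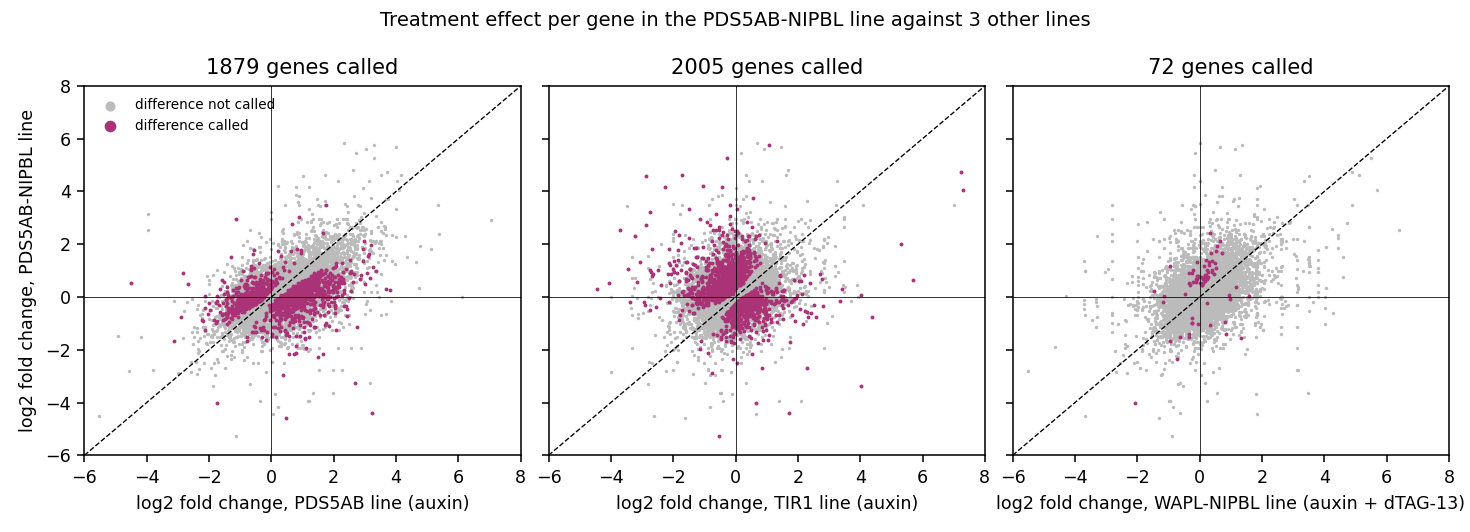
Treatment effect of each of 19868 genes in the PDS5AB-NIPBL line (vertical, log2 fold change) against the effect in the PDS5AB, TIR1 and WAPL-NIPBL lines (horizontal), with genes whose effects differ by edgeR's test in purple and the line of equal effects dashed. The purple genes number 1879, 2005 and 72, and against the PDS5AB line most lie nearer to 0 on the vertical than on the horizontal axis.

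Just 10 genes (0.0503%) changed in the PDS5AB-NIPBL line and also differed from the 3 lines tested against with the sign of that change. With the replicate block 84 did, among them all 10. Leaving out 1 library at a time gave 6 to 12, with 6 without treated replicate 3 or untreated replicate 1 of the PDS5AB-NIPBL line, or without treated replicate 2 of the WAPL-NIPBL line. Kctd12 and Ceacam1 led in the 2 directions. Kctd12 rose by 2.41 here, with effects of 1.64 in the PDS5AB, 0.08 in the TIR1 and 0.32 in the WAPL-NIPBL line, and in the WAPL line it rose by 1.79. Its differences from the 3 were 0.77, 2.32 and 2.09 (adjusted p = 0.00637, 5.54e-09 and 1.12e-06). Ceacam1 fell by 4.01, against -1.75, 0.64 and -2.07 (differences -2.26, -4.65 and -1.94, adjusted p = 0.000113, 8.95e-12 and 0.00403), and in the WAPL line it fell by 3.49. Differences from the WAPL line were not tested, and in that line 8 of the 10 genes were called in the same direction, where 32.8% of all genes were called in either. Pcdh19, an adhesion protocadherin outside the clusters, rose from 5.09, 4.09 and 4.68 CPM to 13.3, 13 and 17.2 CPM, with differences of 0.70, 1.39 and 1.29.

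Gramd1b, which carries cholesterol between membranes, rose from 79.6, 70.2 and 73.9 CPM to 132, 121 and 124 CPM (log2 fold change 0.75, differences 0.51, 0.56 and 0.50). Pqlc3 rose from 21.8, 21.5 and 19.6 CPM to 33.7, 35.4 and 33.4 CPM (0.71, differences 0.36, 0.50 and 0.47). Tcf15, a bHLH factor of cells leaving the naive state, fell from 11.1, 10.8 and 11.4 CPM to 3.42, 4.45 and 3.72 CPM (-1.52, differences -0.74, -1.22 and -0.91). The groups of these 3 did not overlap, as in 33.4% of all tested genes. Spi1, the myeloid factor PU.1, rose from 1.00, 1.39 and 0.819 CPM to 3.37, 4.09 and 3.19 CPM, and Car8, a carbonic anhydrase relative, fell from 3.8, 4.31 and 3.67 CPM to 1.91, 2.02 and 1.83 CPM. Spi1 and Car8 lie under the level the naming rule asks for and were named after their values were seen. For the difference from the WAPL-NIPBL line the edgeR adjusted p was 0.0352 for Pqlc3, 0.0352 for Spi1 and 0.0265 for Car8. Alternatives for these differences are not given.

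Tbc1d4, a GTPase regulator of glucose transport, rose from 2.04, 2.13 and 2.46 CPM to 4.19, 6.52 and 5.84 CPM, and differed from the WAPL-NIPBL line by 1.41 (adjusted p = 0.0197). That call was lost without treated replicate 2 (adjusted p = 0.0651), treated replicate 3 (0.0558), untreated replicate 1 (0.0588) or untreated replicate 2 (0.0518) of the PDS5AB-NIPBL line. It was also lost without treated replicate 1 (0.0699) or untreated replicate 3 (0.0837) of the WAPL-NIPBL line, and its alternatives spanned 0.00113 to 0.0837. Fam131c fell from 8.39, 6.88 and 7.93 CPM to 2.78, 3.23 and 2.29 CPM and differed from the WAPL-NIPBL line by -1.17 (adjusted p = 0.0214). The Fam131c call was lost without treated replicate 1 (0.0578) or 3 (0.0855), or untreated replicate 1 (0.0554) or 3 (0.0573), of the PDS5AB-NIPBL line, and in the compared groups alone (0.0619). It was also lost without treated replicate 2 (0.0834) or 3 (0.0633) or untreated replicate 1 (0.0659) of the WAPL-NIPBL line, with a range of 0.00112 to 0.0855.

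**Figure D4:**
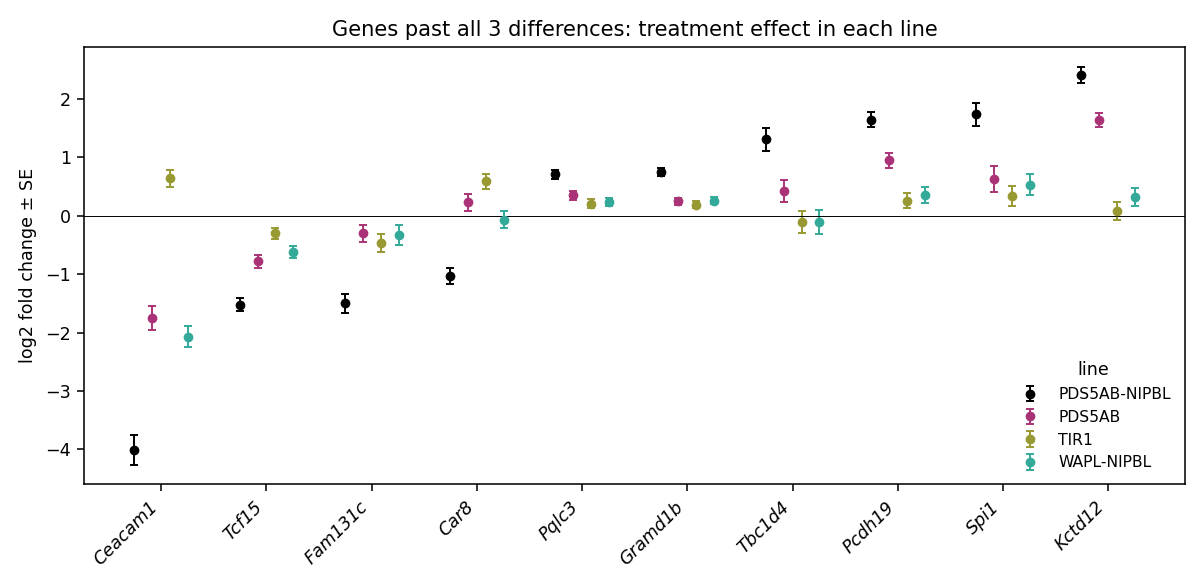
Log2 fold change ± SE (edgeR) in each of 4 lines for the 10 genes that changed in the PDS5AB-NIPBL line and differed from these 3 others. The black points of the PDS5AB-NIPBL line lie outermost in each gene, from -4.01 for Ceacam1 to 2.41 for Kctd12, as the choice of these genes requires.

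The direction of the calls followed the level of the gene. When tested genes were split into 5 equal bins by their mean level over the 30 libraries, 3.90% of the lowest bin rose and 0.956% fell, with a median log2 fold change of 0.112. In the middle bin 19.1% rose and 8.25% fell. In the highest bin, from 59.8 CPM upwards, 9.74% rose and 16.7% fell, with a median of -0.061. The part of depth in these shares was not tested. By genomic span, 3.12% of genes in the shortest bin (up to 3.22 kb) rose and 2.72% fell. In the longest bin (from 56.3 kb) 16.6% rose and 9.59% fell. The 2 bins also differed in level, with median untreated levels of 0.6 and 17.8 CPM. Of 15225 tested protein-coding genes 23.8% were called, and of 767 long intergenic noncoding RNAs 10.8%. The part of level in the shares by span and by gene type was not tested.

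Genes called next to each other on a chromosome mostly moved the same way. Among 883 pairs of adjacent protein-coding genes that were both called, 69.4% had the same direction, with pairs on opposite strands that overlap in exons left out. The share was 61.8% for genes 2 places apart, 57.7% at 3, 55.2% at 5, 52.6% at 10 and 48.7% of 821 pairs at 50 places. In the PDS5AB line it was 62.7% for adjacent pairs and 49.8% at 50 places, in the WAPL-NIPBL line 73.6% of 227 adjacent pairs and 45.4% at 50 places. In the TIR1 line, which has no degron fusion, it was 69.2% of 783 adjacent pairs and 55.1% at 50 places. Neighbouring pairs share genes and libraries, so these shares are descriptions. Runs of at least 4 neighbouring called genes in 1 direction numbered 20, with 13 that rose and 7 that fell.

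The HOXD cluster, whose genes pattern limbs and the body axis, held one rising run on chr2:74668310-74707933. Hoxd13 rose from 1.34 ± 0.08 to 3.76 ± 0.47 CPM (SD, n = 3, edgeR log2 fold change 1.49), Hoxd9 from 0.338 ± 0.147 to 2.18 ± 0.81 CPM (2.63) and Hoxd8 from 0.637 ± 0.154 to 3.21 ± 0.58 CPM (2.30). Hoxd10 and Hoxd11, between them, had at most 3 counts in each untreated library, and were at least 2.99-fold and 2.10-fold higher. The cytokine genes Osm and Lif rose in a run with Castor1 and Hormad2 on chr11:4218225-4441105. The largest falling run, with 6 genes from Spn to Zfp553, lay on chr7:127132232-127238179, with log2 fold changes from -0.94 to -0.24. Its members Sept1 and Zfp553 overlap on opposite strands and the counting ignored strand, so its length is uncertain. A run on chromosome 18 held Spry4 (-4.52) with Gnpda1, Ndfip1 and Arhgap26, which fell too. The run also counts Fgf1, at a mean of 0.103 CPM in untreated cells and 0 counts in treated cells, a call that rests on few counts. Members of these runs were named after their values were seen, apart from Spry4.

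**Figure D5:**
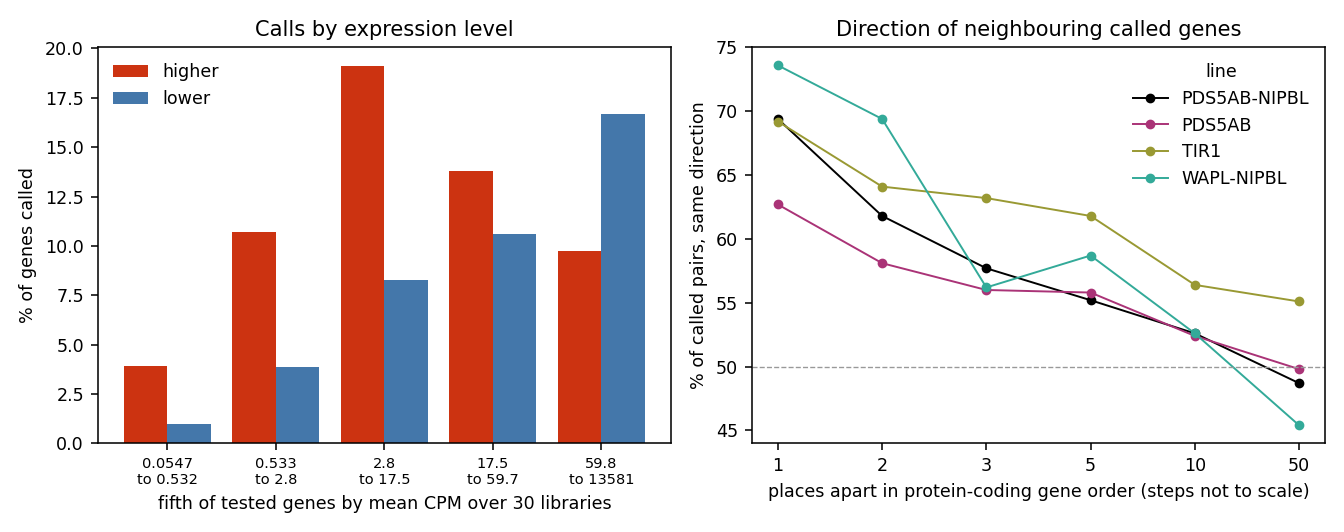
Left, percent of tested genes called higher or lower in the PDS5AB-NIPBL line by bin of mean level over the 30 libraries (CPM range under each pair of bars). Right, percent of called pairs of protein-coding genes with the same direction by distance in gene order for 4 lines, on an axis that does not start at 0 and whose steps are not to scale. The lower calls reach 16.7% in the highest bin, and the black line falls from 69.4% for adjacent genes to 48.7% at 50 places, while the TIR1 line starts at 69.2%.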

How the data were processed

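The authors deposited a table of raw counts of fragments per gene for 30 libraries, made with featureCounts 2.0.1 on GENCODE M23 gene models of GRCm38, per the file headers. STAR 2.7.7a, cutadapt and deepTools are listed in the submitters' processing notes. The recorded command sets no strand or multi-mapping option, so overlapping antisense genes and near-identical copies are uncertain, although the labels name a stranded kit. Of 55421 genes, 99.5% were matched to a symbol. From the counts, edgeR 4.0.16 in R 4.3.3 (filterByExpr with minimum count 10, TMM factors 0.95 to 1.13, quasi-likelihood F-test, Benjamini-Hochberg over 19868 genes, called at 0.05) was fitted to all 30 libraries with a mean for each of 10 groups and 20 residual degrees of freedom. Standard errors are the log2 fold change divided by the root of F. A fold from a group with at most 3 counts in each library is a bound computed against 3 counts. On simulated counts, the depletion test recovered 56 of 67 changes of 1.5-fold (83.6%), and all 67 of 2-fold and 66 of 4-fold (100%). It made 18 false calls among 18916 genes. Differences between effects were tested as interaction contrasts in the same fit. At 1.5-fold, 53.7% (PDS5AB), 58.2% (TIR1) and 56.7% (WAPL-NIPBL) of simulated differences were recovered. Recovery in genes at low levels was not tested.

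The labels number the replicates. In the PDS5AB-NIPBL line, deviations of same-numbered libraries from their group means correlated at 0.163, 0.222 and 0.207, each above 0.1. The numbers were therefore taken to pair the samples. The fit described above has no replicate term, so results given without the block do not use this pairing. Alternatives were DESeq2 1.42.0, no filter, a 2-fold threshold, the compared groups only, the replicate block and leaving out each library. Leaving out both libraries numbered 2 was added after seeing the data. Promoter windows and coordinates of starts came from RefSeq on GRCm38.p6. Named genes were tagged genes and fixed anchors, the 8 largest rises and falls with at least 5 CPM, a symbol and groups that do not overlap, the 4 largest differences in each direction, the genes past all 3 differences, and up to 3 called members of each list. Results for some genes that met the rule are not reported here. Other names were added after their values were seen. The line, lists and rules were chosen with earlier results of these data known.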

Additional observations from a re-analysis of the deposited data

Results flagged for a closer look

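The treatment effect of the PDS5AB-NIPBL line differed from that of another line, by edgeR's test of the difference itself, in 1879 genes against the PDS5AB line, 2005 against the TIR1 line and 72 against the WAPL-NIPBL line. Genes below passed that test and had a mean of at least 5 CPM in the higher group of the PDS5AB-NIPBL line, a condition that leaves out genes at lower levels with differences as large. Differences are log2 values, the effect in the PDS5AB-NIPBL line minus that in the other line.

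Against the PDS5AB line the positive differences named under this condition were Mobp 3.74, Gli2 1.75, Glod5 1.70 and Mc5r 1.61, and the negative ones were Ceacam1 -2.26, Krt19 -2.05, Egln3 -1.85 and Cyp2s1 -1.84. Mc5r, a melanocortin receptor, stood at 6.38, 4.61 and 5.86 CPM untreated and 5.15, 4.95 and 5.09 CPM treated, overlapping groups, while the PDS5AB effect was -1.76. Egln3, an oxygen-sensing hydroxylase, and Cyp2s1, a cytochrome P450, had effects of -0.61 and -0.07 in the PDS5AB-NIPBL line, neither called, and of 1.24 and 1.77 in the PDS5AB line. Replicate 3 of both groups was lowest for Egln3 (8.75 and 5.05 CPM), and each treated library lay below its same-numbered untreated one.

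Against the TIR1 line they were Lars2 3.49, Epn3 3.32 and Mrc2 2.40, and Ceacam1 -4.65, Cyp1a1 -2.52, Adamts8 -2.27 and Cdx2 -2.09. Lars2 was high in both libraries numbered 2, and without treated replicate 2 its difference was 2.01 (adjusted p = 0.0607, edgeR, with a range over its alternatives of 1.64e-214 to 0.0607). Its effect in the PDS5AB-NIPBL line was 1.01 and not called (edgeR adjusted p = 0.23). In the TIR1 line the Lars2 effect was -2.49, from 673 ± 604 CPM untreated to 120 ± 44.2 CPM with auxin (SD, n = 3).

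Against the WAPL-NIPBL line they were Kctd12 2.09, Tbc1d4 1.41, Pcdh19 1.29 and Nlrp9b 1.24, and Ceacam1 -1.94, Adamts8 -1.63, Foxd1 -1.52 and Fam131c -1.17. The call for Nlrp9b (edgeR adjusted p = 0.0144) was lost without treated replicate 3 (0.0558) or untreated replicate 3 (0.0524) of the PDS5AB-NIPBL line, or untreated replicate 1 (0.0596) of the WAPL-NIPBL line, with a range of 1.02e-06 to 0.0596. The call for Foxd1 (adjusted p = 0.0346) was lost without treated replicate 1 (0.0847) or 2 (0.0871), or untreated replicate 1 (0.0621) or 3 (0.116), of the PDS5AB-NIPBL line. For Foxd1 it was also lost without treated replicate 1 (0.0769), 2 (0.0504) or 3 (0.0849), or untreated replicate 1 (0.0531), 2 (0.109) or 3 (0.133), of the WAPL-NIPBL line, with a range of 2.22e-05 to 0.133.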

How the results depend on the processing

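The depletion effect called 831 genes with a 2-fold threshold, 6377 with the replicate block, 6048 in the 6 libraries alone with the replicate block, 2553 without both libraries numbered 2, and 2859 to 3335 when 1 library at a time was left out. The difference from the PDS5AB line called 418 genes at 2-fold, 4847 with the replicate block, 1144 without both libraries numbered 2, and 1272 to 2078 with 1 library left out. The difference from the TIR1 line called 653, 4996 and 1138 in the same settings, and 1486 to 1915 with 1 library left out. The block pairs same-numbered libraries in every line, and the untreated and auxin libraries of the TIR1 line lie in different sets. The difference from the WAPL-NIPBL line called 25 at 2-fold, 149 with DESeq2, 163 with no filter, 807 with the replicate block, 21 without both libraries numbered 2, and 28 to 56 with 1 library left out. Genes past all 3 differences numbered 3 at 2-fold, 17 with DESeq2, 6 in the compared groups only, 25 with no filter, 84 with the replicate block, 7 without both libraries numbered 2, and 6 to 12 with 1 library left out. A 2-fold threshold calls fewer genes and leaving out libraries leaves fewer samples by construction, and for the other settings the cause was not tested. The sign of Nipbl, -0.01 and not called, turned, to 0.00 in the compared groups only and in the 6 libraries alone with the replicate block, 0.04 without treated replicate 1, 0.02 without untreated replicate 2 and 0.03 without untreated replicate 3 (from -0.07 to 0.04 with 1 library left out). Of 1687 recomputed values for 131 gene results, 1592 kept their direction and side of the threshold, 85 lost the call, 5 gained it and 5 changed sign. Of 416 recomputed list counts, 358 stayed within 1.5 times. The smallest library held 19632704 fragments. In the lowest of 5 bins by level (up to 0.532 CPM) 3.90% of genes were called higher and 0.956% lower, and the part of depth in this was not tested.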
